A study of Mus musculus with 12 samples.

Results

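The collagen genes of the mouse liver were described across 2 diets and 2 injections. Their members were all genes of the deposited count table whose mouse symbol has the form Col, a type number, a and a chain number. This gave 44 of 27179 genes: 11 fibrillar collagens, 9 basement membrane collagens and 24 others. The last group holds the beaded filament type VI chains, the fibril-associated collagens with interrupted triple helices (FACIT), the short chain and transmembrane collagens and 2 chains outside these classes.

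A collagen is a trimer of α chains wound into a triple helix. Fibrillar chains such as Col1a1, Col1a2 and Col3a1 pack into the cross-striated fibrils that give tissue its tensile strength, and in the injured liver they are the main substance of scar. Type IV chains form the sheet-like network of basement membranes, to which the multiplexins Col15a1 and Col18a1 attach. In the healthy liver collagen is sparse. Hepatic stellate cells and portal fibroblasts are known as the main sources of fibrillar chains, and hepatocytes are a known source of Col18a1, whose C-terminal fragment is endostatin.

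Liver RNA of 12 male mice was sequenced in bulk, 1 library per mouse and 3 per group. Mice were fed either chow (CD) or a diet low in protein (LPD) from before the injection until harvest. They were injected through the tail vein with empty vector (Vec) or with human c-MET and ΔN90-β-catenin, an N-terminally truncated and constitutively active β-catenin. Each diet thus has a Vec and a c-MET/β-catenin group, named by diet and injection, and every library was collected when the CD c-MET/β-catenin mice reached their end point. Both oncogenes were driven by the EF1α promoter from Sleeping Beauty plasmids, which hydrodynamic injection delivers to a part of the hepatocytes only. The strain is given in the methods as C57/Bl3 and elsewhere in the study as a mixed background. In the count table the chow libraries carry HPD, the study's abbreviation for a high-protein diet, in their column names, whereas their titles give chow, which was followed here. The labels call the vector controls WT and name the cell type hepatocyte, whereas the material was whole liver tissue.

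Libraries held 19476209 to 31990267 counts. Levels are given as counts per 1000000 (CPM) after scaling by the trimmed mean of M values (TMM), and levels of different genes are compared only as CPM per kilobase of exon. Hepatocyte markers were high in all 12 libraries (66408.9 to 120560.6 CPM summed over 7 genes), and markers of stellate cells, endothelium and macrophages were present in all of them too. In 3 of the 4 groups 1 liver had the lowest level of its group for most of the 29 tested collagens: CD Vec replicate 2 for 21 (72.4%, against 43.2% of all genes tested), CD c-MET/β-catenin replicate 3 for 21 (72.4%, against 30.9%) and LPD Vec replicate 3 for 19 (65.5%, against 34.5%). In CD Vec replicate 2 the summed sinusoidal endothelial markers were at 171.1 CPM against 357.9 and 306.1 in the other CD Vec mice. The header of the count table gives each library a dataset number, and these fall into 3 runs. CD c-MET/β-catenin replicates 1 and 2 make up the first run alone, the second run holds replicate 3 of that group, CD Vec replicate 3 and 5 LPD libraries, and the last run consists of LPD Vec replicate 1 with replicates 1 and 2 of CD Vec. What the numbers stand for is not stated, so the collagen calls on CD are also given with a term for the runs and within the second run, as are the calls of the other gene lists on CD. Shares and ratios were not refitted with the runs.

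Promoter sequences of some of the genes described below were read from RefSeq windows of GRCm38.p6 (mm10), which held 38 windows for 35 of the 44 genes. Type IV chains are encoded in head-to-head pairs that share a promoter region, which is why the overlap of Col4a1 and Col4a2 is shown. Col3a1, Col1a2 and Col27a1 are shown because they are abundant fibrillar genes that have a window, and because Col27a1 moved the opposite way to the others. All are written 5′ to 3′ on the plus strand, in lower case, with capitals for any of 4 motifs on either strand. These were the CCAAT box, searched as CCAAT, and the TATA box, for which the search letters were TATAAA. The GC box was searched as GGGCGG, and a SMAD-type element was searched with the letters CAGAC. The first is chr8:11312805-11312826, the 22 bases by which the first exons of the GENCODE transcripts of Col4a1 (minus strand) and Col4a2 (plus strand) overlap, and the overlap of the RefSeq genes is longer. The second is chr1:45311288-45311537, the 250 bases before Col3a1. The next is chr6:4505368-4505492, 125 bases before a GENCODE transcript start of Col1a2. Whether a longer transcript covers this stretch was not checked. The last is chr4:63215162-63215411, the 250 bases before the start that the RefSeq window of Col27a1 uses. That start lies inside the gene, and the stretch is in an intron of a longer GENCODE transcript.
Col4a2-Col4a1: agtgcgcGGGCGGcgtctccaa
Col3a1: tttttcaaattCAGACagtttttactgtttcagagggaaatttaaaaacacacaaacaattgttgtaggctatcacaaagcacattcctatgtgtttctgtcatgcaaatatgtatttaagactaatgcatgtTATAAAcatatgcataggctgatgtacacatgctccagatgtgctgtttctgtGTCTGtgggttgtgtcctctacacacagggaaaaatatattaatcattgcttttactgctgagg
Col1a2: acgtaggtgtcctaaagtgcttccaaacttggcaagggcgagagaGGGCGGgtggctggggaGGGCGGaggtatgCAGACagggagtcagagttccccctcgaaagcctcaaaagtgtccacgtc
Col27a1: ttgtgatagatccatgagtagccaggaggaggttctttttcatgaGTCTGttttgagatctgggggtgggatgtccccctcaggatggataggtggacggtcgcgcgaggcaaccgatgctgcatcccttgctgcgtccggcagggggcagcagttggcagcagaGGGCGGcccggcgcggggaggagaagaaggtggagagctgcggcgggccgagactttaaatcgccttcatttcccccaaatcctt

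Over whole windows of 250 bases before to 50 bases after a start, GGGCGG stood in 60.5% of the 38 collagen windows and in 35.7% of all 32851 windows. CAGAC stood in 52.6% against 49.6%, CCAAT in 34.2% against 37.4% and TATAAA in 13.2% against 13.6%. A match is a run of letters and not a bound site. In the sequences shown, the overlap of Col4a1 and Col4a2 held 1 GC box, and Col3a1 held a TATA box and 2 SMAD-type elements.

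The first comparison asks what the oncogenes did to collagen mRNA on chow. Of the 44 genes, 21 passed the test in CD c-MET/β-catenin against CD Vec livers (edgeR quasi-likelihood test, adjusted p under 0.05 over 13947 genes), 16 higher and 5 lower. The 21 are 47.7% of the 44 members and 72.4% of the 29 that could be tested, against 35.4% of all genes tested. By direction, 36.4% of the members and 55.2% of those tested rose, against 18.7% of all genes tested, and 11.4% and 17.2% fell, against 16.7%, which is near the background. All 8 tested fibrillar chains passed, 5 up and 3 down. Of the 9 basement membrane chains 5 rose, all of them type IV, and Col18a1 fell. Of the 24 others 6 rose and Col13a1 fell. Among the 29 tested collagens the median log2 fold change was 1.33, and over all genes tested it was -0.01. Col4a4, Col4a6 and Col23a1 passed the filter on low counts only through the CD c-MET/β-catenin libraries. Of the 26 others 14 rose and 5 fell, with a median of 1.11.

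Every mouse of the oncogene group was higher than every Vec mouse for 13 tested collagens and lower for 4, where 42.6% of all genes tested were separated in 1 of these directions.

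With a term for the header runs in the fit, 4 of the 44 stayed called on CD: Col4a4, Col8a1 and Col23a1 higher and Col27a1 lower, while 6.78% of all genes were called. Of these 4, Col4a4 and Col23a1 had passed the low-count filter only through the group in which they are high. Of the 16 collagens that had risen, 15 kept their direction, and their median log2 fold change went from 2.41 to 1.04. The 5 that had fallen kept theirs, with a median of -1.80 in place of -1.41. Within the second run, where each CD group has 1 mouse, 14 of the 16 were higher and 5 of 5 lower in the c-MET/β-catenin mouse. An edgeR fit of this run alone, added after the data were seen, takes the spread from its LPD mice and assumes that each lone CD mouse varies like them. It called 7 collagens on CD, against 12.1% of all genes it tested: Col4a1 (0.72), Col4a3 (3.36), Col4a4 (2.94), Col8a1 (2.92) and Col23a1 (3.54) higher and Col5a3 (-1.07) and Col27a1 (-4.63) lower on the log2 scale. The run and the oncogenes cannot be told apart in the 2 libraries of the first run. The run term and the fit of the second run therefore both take the CD oncogene level from replicate 3 alone. They are not separate checks.

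Col1a1, the gene for the α1 chain of type I collagen (Entrez 12842, chr11:94936224-94953042), had the largest log2 fold change of the fibrillar genes tested. It was at 10.4, 7.05 and 6.92 CPM in CD Vec and at 194.7, 151.0 and 23.2 CPM in CD c-MET/β-catenin replicates 1, 2 and 3. All 3 oncogene livers stood above all 3 controls, but replicate 3 was far below its group mates. The log2 fold change was 3.92 ± 0.65 (SE, n = 3 per group, edgeR adjusted p = 0.000985), and 1.73 ± 0.46 with the run term (edgeR adjusted p = 0.0525). On LPD it was at 7.19, 8.06 and 3.59 CPM with Vec and at 7.57, 6.17 and 11.1 CPM with the oncogenes, so these groups overlapped.

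Col1a2, its partner chain, was at 13.9, 8.87 and 12.9 CPM in CD Vec and at 122.3, 88.5 and 17.1 CPM in CD c-MET/β-catenin mice (log2 fold change 2.68 ± 0.56). On LPD the Vec mice had 12.2, 11.7 and 6.72 CPM and the oncogene mice 10.7, 10.8 and 16.6 CPM. Col3a1, the chain of the type III collagen that forms reticular fibers, was at 44.5, 23.5 and 35.8 CPM against 176.2, 149.7 and 47.3 CPM on CD (log2 fold change 1.85 ± 0.44). For both genes the lowest oncogene liver was replicate 3, and it stood just above the highest Vec liver. On LPD Col3a1 had 35.5, 33.4 and 20.2 CPM with Vec and 30.6, 26.2 and 46.4 CPM with the oncogenes. With the run term the log2 fold changes on CD were 0.60 and 0.56, neither of them called.

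Type V chains nucleate fibrils and set their width. Col5a2 was at 3.11, 2.16 and 2.71 CPM in CD Vec and at 30.6, 18.6 and 7.07 CPM in CD c-MET/β-catenin livers (log2 fold change 2.82 ± 0.43, edgeR adjusted p = 0.000468). Col5a1 was at 9.93, 6.08 and 7.70 CPM against 32, 24.4 and 5.35 CPM. Its groups overlapped, since replicate 3 lay below all 3 Vec livers. Its log2 fold change of 1.38 ± 0.48 had an adjusted p of 0.0429 by edgeR, and turned to -0.46 with the run term. Leaving out any of 10 of the 12 libraries ended its call, with the highest adjusted p at 0.185 when replicate 1 of the CD oncogene group was left out. On LPD Col5a2 was at 1.97, 2.79 and 1.85 CPM with Vec and at 2.64, 3.44 and 3.19 CPM with the oncogenes. Col5a1 was at 10.1, 8.74 and 8.20 CPM against 8.21, 7.26 and 11.8 CPM there, and overlapped as well.

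The other 3 tested fibrillar genes fell. Col27a1 (Entrez 373864, chr4:63214009-63334991), a fibrillar chain best known from cartilage, was at 103.8, 175.2 and 119.1 CPM in CD Vec and at 10.2, 13.9 and 4.86 CPM in CD c-MET/β-catenin livers. These groups were far apart, and the log2 fold change of -3.78 ± 0.36 had the smallest adjusted p of all collagens (3.44e-05, edgeR). With the run term it was -4.81 ± 0.48 (edgeR adjusted p = 0.0023), and the 2 mice of the second run had 4.86 against 119.1 CPM. On LPD it was at 113.6, 138.5 and 148.5 CPM with Vec and at 117.4, 78.2 and 78.2 CPM with the oncogenes.

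Col5a3, another type V chain, was at 19.3, 8.35 and 15.1 CPM against 7.02, 4.53 and 7.30 CPM on CD, without overlap (log2 fold change -1.18 ± 0.29). Its LPD mice had 15.3, 17.0 and 21.2 CPM with Vec and 17.9, 12.8 and 16.7 CPM with the oncogenes. Col11a2, a chain of the cartilage collagen type XI, was at 0.407, 5.97 and 0.937 CPM against 0.318, 0.652 and 0.374 CPM. This fall (log2 fold change -2.44 ± 0.83, edgeR adjusted p = 0.0376) rests on CD Vec replicate 2: without it the change was -0.61, with an adjusted p of 0.443. Its call was also lost without any of the CD c-MET/β-catenin libraries (adjusted p from 0.0563 to 0.118). In LPD livers Col11a2 was at 1.39, 2.83 and 2.72 CPM with Vec and at 1.86, 1.93 and 3.98 CPM with the oncogenes.

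**Figure D1:**
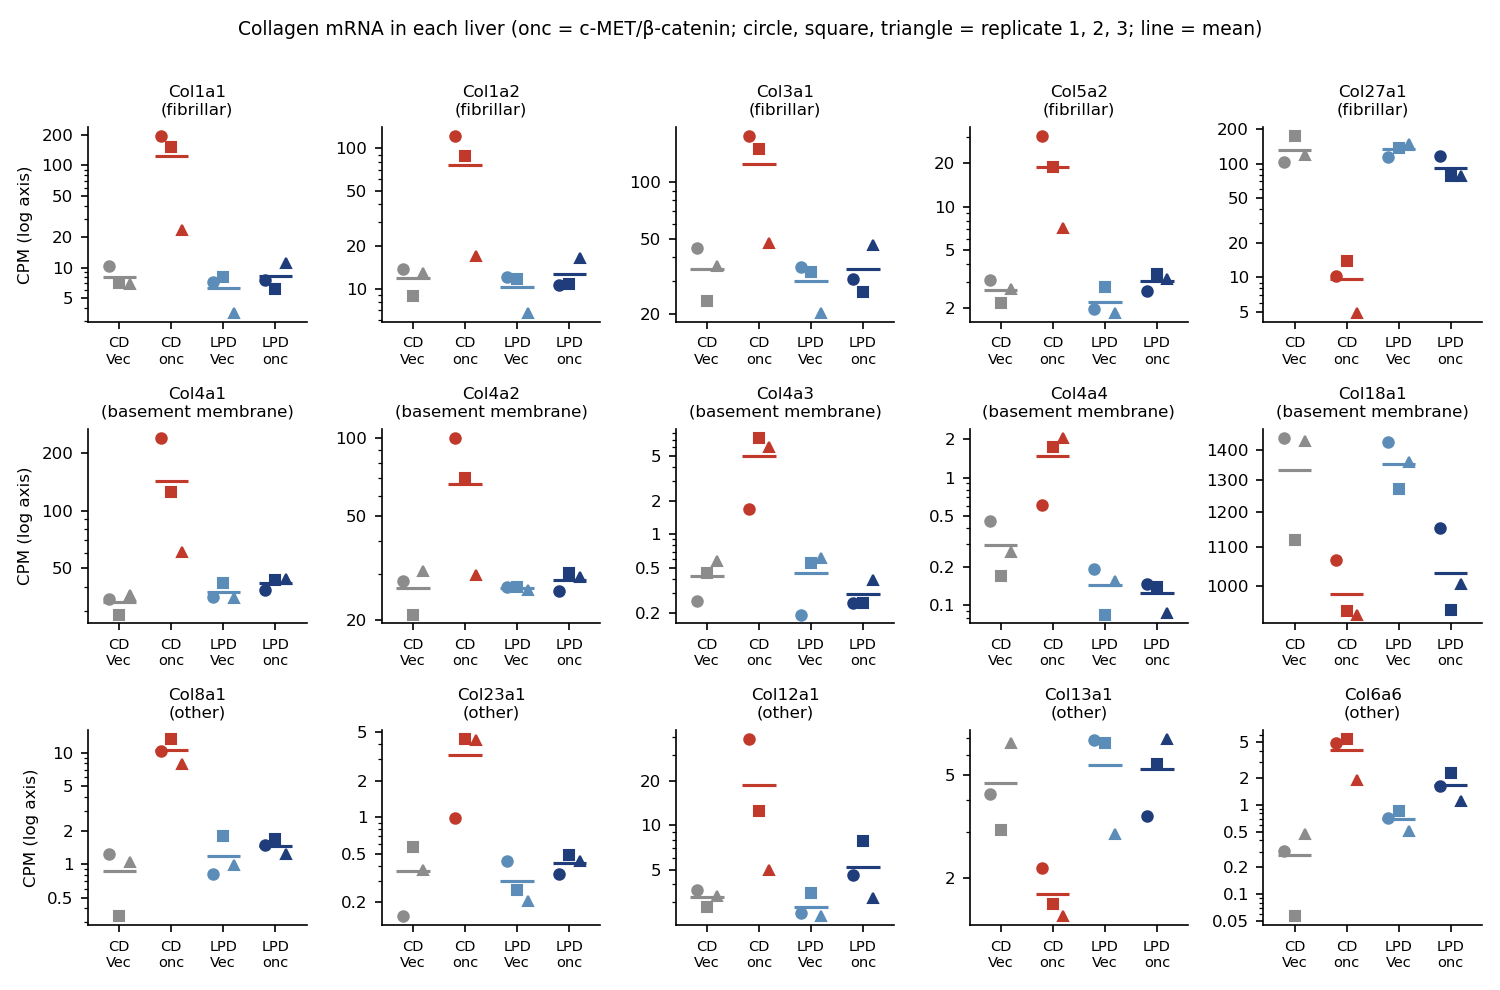
Levels of 15 collagen genes in each of the 12 livers, as CPM on a log axis that differs between panels. Each symbol is 1 mouse and the line is the mean of 3. In the CD c-MET/β-catenin group (red, marked onc), Col1a1 was at 194.7, 151.0 and 23.2 CPM and Col27a1 at 10.2, 13.9 and 4.86 CPM. For both genes the LPD oncogene livers overlapped the LPD Vec livers. Of the genes shown, Col18a1 (lower with the oncogenes) and Col6a6 (higher) did not overlap on LPD.

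The 6 type IV chains form 3 kinds of network: α1 and α2 make the network found in nearly every basement membrane, and α3, α4, α5 and α6 make those of specialised epithelia such as the kidney glomerulus. Col4a1 (Entrez 12826, chr8:11198423-11312889) was at 34.6, 28.6 and 36.4 CPM in CD Vec and at 240.6, 124.9 and 60.6 CPM in CD c-MET/β-catenin livers, without overlap (log2 fold change 2.10 ± 0.37, edgeR adjusted p = 0.00121). Its neighbor Col4a2 was at 28.1, 20.9 and 30.7 CPM against 100.4, 70.3 and 29.7 CPM, with replicate 3 inside the range of the Vec livers (log2 fold change 1.33 ± 0.32). With the run term they were at 0.77 and 0.07 on the log2 scale, and neither was called. On LPD Col4a1 was at 35.4, 41.7 and 34.9 CPM with Vec and at 38.3, 43.6 and 43.8 CPM with the oncogenes, and Col4a2 at 26.8, 26.7 and 26.0 CPM against 25.8, 30.1 and 29.1 CPM.

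The minor type IV chains were low in every group and showed another order of the mice. Col4a3 (Entrez 12828, chr1:82586921-82722059) was at 0.255, 0.455 and 0.573 CPM in CD Vec, from 5, 8 and 11 counts. In CD c-MET/β-catenin livers it was at 1.67, 7.30 and 5.99 CPM, from 58, 179 and 160 counts. Every oncogene liver was above every Vec liver, and the lowest was replicate 1, the liver with the highest Col1a1. Its log2 fold change was 3.53 ± 0.58 (edgeR adjusted p = 0.000711), and 3.15 ± 0.84 with the run term (edgeR adjusted p = 0.0522). On LPD it was at 0.192, 0.549 and 0.615 CPM with Vec and at 0.244, 0.245 and 0.393 CPM with the oncogenes, within or just outside the range of CD Vec.

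Col4a4, its head-to-head neighbor on the other strand, was at 0.458, 0.170 and 0.260 CPM against 0.606, 1.75 and 2.06 CPM on CD, again lowest in replicate 1. Its log2 fold change was 2.27 ± 0.52, and with the run term 3.08 ± 0.80 (edgeR adjusted p = 0.0489). Col4a5, on the X chromosome, was at 0.967, 0.625 and 1.15 CPM against 2.11, 8.16 and 3.29 CPM (log2 fold change 2.29 ± 0.52). Its partner Col4a6 had 0.153, 0.114 and 0.573 CPM in CD Vec and 0.202, 2.65 and 0.561 CPM in the oncogene livers. High only in replicate 2, it did not pass the test (edgeR adjusted p = 0.112). On LPD Col4a5 was at 1.15, 0.633 and 0.564 CPM with Vec and at 0.733, 1.58 and 1.36 CPM with the oncogenes, and Col4a4 at 0.192, 0.0844 and 0.154 CPM against 0.147, 0.140 and 0.0874 CPM. For Col4a4, 5 of these 6 livers were below the lowest CD Vec liver, but diet in Vec livers was not called (log2 fold change -1.05, edgeR adjusted p = 0.6575).

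Among the other basement membrane collagens, Col18a1 (Entrez 12822, chr10:77052178-77166530) had by far the highest level of all 44 genes. It was at 1443.4, 1119.7 and 1430.9 CPM in CD Vec and at 1066.4, 939.7 and 931.1 CPM in CD c-MET/β-catenin livers. The groups did not overlap, but the fall was small (log2 fold change -0.44 ± 0.15, edgeR adjusted p = 0.0333). It depended on the scaling: with total counts alone, which moved the median of all genes on CD from -0.01 to 0.28, it was -0.16 and was not called (edgeR adjusted p = 0.409). It was also lost without CD Vec replicates 1 or 3 or CD c-MET/β-catenin replicates 2 or 3 (adjusted p from 0.08 to 0.109).

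On LPD Col18a1 stood at 1427.9, 1272.2 and 1358.1 CPM with Vec and at 1153.3, 942.2 and 1003.8 CPM with the oncogenes. Here too every oncogene liver was below every Vec liver, and the log2 fold change of -0.39 ± 0.15 did not pass (edgeR adjusted p = 0.313). Col15a1 was at 18.0, 2.39 and 13.7 CPM in CD Vec and 8.81, 12.6 and 7.86 CPM in CD c-MET/β-catenin livers, and at 20.3, 18.3 and 23.2 CPM against 13.4, 16.1 and 12 CPM on LPD. It was not called in any comparison, and CD Vec replicate 2 was the outlying low value. Col7a1, the anchoring fibril collagen, was below 1 CPM in every liver.

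Of the other collagens, Col8a1 (Entrez 12837, chr16:57624256-57754737) rose to a like level in all 3 mice. This short chain collagen of vessel walls and Descemet's membrane was at 1.22, 0.341 and 1.04 CPM in CD Vec and at 10.4, 13.2 and 7.97 CPM in CD c-MET/β-catenin livers. The 3 oncogene livers differed by 1.66-fold between highest and lowest, where Col1a1 differed by 8.41-fold. Its log2 fold change was 3.58 ± 0.42 (edgeR adjusted p = 8.99e-05), and 2.81 ± 0.58 with the run term (edgeR adjusted p = 0.0197). In LPD livers it was at 0.815, 1.77 and 0.974 CPM with Vec and 1.47, 1.68 and 1.22 CPM with the oncogenes.

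Col23a1 (Entrez 237759, chr11:51289679-51583925), a transmembrane collagen, was at 0.153, 0.568 and 0.364 CPM against 0.982, 4.40 and 4.34 CPM on CD (log2 fold change 3.15 ± 0.60, and 3.87 ± 0.90 with the run term). Like Col4a3 it was lowest in replicate 1. On LPD it was at 0.432, 0.253 and 0.205 CPM with Vec and at 0.342, 0.491 and 0.437 CPM with the oncogenes. Col13a1, the other tested transmembrane collagen, went the opposite way: 4.23, 3.07 and 6.66 CPM in CD Vec, and 2.19, 1.59 and 1.42 CPM in CD c-MET/β-catenin livers (log2 fold change -1.41 ± 0.39, edgeR adjusted p = 0.0153). Without CD Vec replicate 3 its call was lost (-1.06, adjusted p = 0.0669). On LPD Col13a1 was at 6.86, 6.67 and 2.97 CPM with Vec and 3.47, 5.51 and 6.91 CPM with the oncogenes.

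Col12a1, a FACIT collagen on the surface of type I fibrils, was at 3.62, 2.78 and 3.33 CPM against 38.6, 12.6 and 4.94 CPM on CD, so its 3 oncogene livers lay far apart (log2 fold change 2.53 ± 0.61). With the run term its log2 fold change was 0.52, not called. On LPD it was at 2.54, 3.46 and 2.41 CPM with Vec and 4.59, 7.82 and 3.19 CPM with the oncogenes. Col14a1, a FACIT collagen with the highest level of its class, was at 65.7, 30.2 and 52.4 CPM against 42.5, 39.7 and 21.6 CPM on CD. Its LPD livers had 63.1, 50.8 and 49.2 CPM with Vec and 39.7, 48.3 and 69.7 CPM with the oncogenes, and it was not called. Col16a1 (1.95 to 6.12 CPM over all livers) and Col20a1 (0.599 to 3.58 CPM) were not called either.

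Type VI chains assemble into beaded filaments that anchor cells to the matrix, with α1 and α2 joined by 1 of several larger chains. Col6a1 was at 6.42, 3.86 and 4.16 CPM against 7.77, 3.87 and 3.55 CPM on CD, and Col6a2 at 5.6, 3.13 and 3.8 CPM against 10.3, 5.51 and 3.93 CPM. Neither was called, with adjusted p of 0.888 and 0.198 by edgeR. The larger chains differed from them. Col6a6 was at 0.306, 0.0568 and 0.468 CPM against 4.88, 5.42 and 1.91 CPM, without overlap (log2 fold change 3.83 ± 0.57, edgeR adjusted p = 0.000414), and 2.47 ± 0.70 with the run term (edgeR adjusted p = 0.062). Col6a3 was at 7.18, 5.11 and 5.31 CPM against 19.1, 17.5 and 5.65 CPM, and Col6a5 at 0.713, 0.909 and 1.09 CPM against 2.17, 1.67 and 1.42 CPM.

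Col6a3 and Col6a5 sat at the threshold, with log2 fold changes of 1.26 ± 0.45 and 0.95 ± 0.35 and adjusted p of 0.0467 and 0.0488 by edgeR. Leaving out any of 9 libraries ended either call, with adjusted p up to 0.156 and 0.15 when replicate 1 of the CD oncogene group was left out. On LPD, Col6a3 was at 5.71, 4.98 and 4.51 CPM with Vec and at 15, 5.54 and 6.25 CPM with the oncogenes, the first of these standing apart from its group. Col6a6 was at 0.719, 0.844 and 0.513 CPM against 1.61, 2.28 and 1.09 CPM there. Col6a1 had 5.56, 4.69 and 3.18 CPM in LPD Vec and 4.74, 2.98 and 5.38 CPM in LPD c-MET/β-catenin livers, and Col6a2 had 5.08, 4.77 and 2.36 CPM against 3.81, 3.72 and 4.72 CPM. For Col6a5 these were 0.336, 0.802 and 0.564 CPM against 0.586, 0.596 and 0.874 CPM. In each of these 3 genes the LPD groups overlapped.

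The 3 CD c-MET/β-catenin mice did not carry the response equally. Of the 16 collagens that rose, 10 were ordered replicate 1 above 2 above 3 (62.5%, against 26.3% of the 2603 genes that rose). Replicate 3 was lowest for 12 (75%, against 40.3%). All 5 risen fibrillar chains had this order, with Col4a1, Col4a2, Col12a1, Col6a3 and Col6a5. Over the CD Vec mean, Col1a1 was 24.0-fold, 18.6-fold and 2.85-fold higher in replicates 1, 2 and 3, Col4a1 7.25-fold, 3.77-fold and 1.83-fold, and Col12a1 11.9-fold, 3.90-fold and 1.52-fold. The other order belonged to Col4a3, Col4a4, Col4a5 and Col23a1, which were lowest in replicate 1 (25%, against 31.3% of all genes that rose). Col4a3 was 3.92-fold, 17.1-fold and 14.0-fold higher, and Col23a1 2.71-fold, 12.2-fold and 12-fold higher in replicates 1, 2 and 3. Col8a1 and Col6a6 were highest in replicate 2 and lowest in replicate 3. Col27a1 was down in each of the 3, to 0.077, 0.105 and 0.0367 of the Vec mean.

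**Figure D2:**
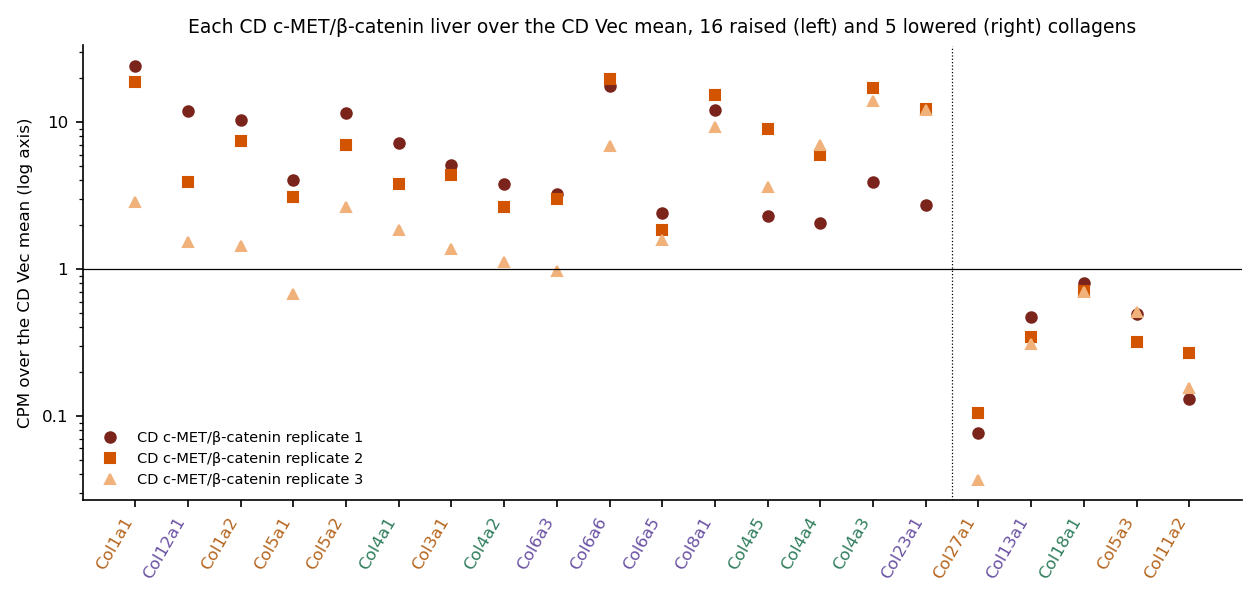
Level of each collagen called on CD in the 3 CD c-MET/β-catenin livers, divided by the mean of the 3 CD Vec livers (log axis). Name colors mark fibrillar (brown), basement membrane (green) and other (purple) collagens. From left to right the 16 risen genes pass from those highest in replicate 1, such as Col1a1 (24.0-fold, 18.6-fold and 2.85-fold), to those lowest in it, such as Col23a1 (2.71-fold, 12.2-fold and 12-fold), and the 5 fallen genes stand on the right.

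**Figure D3:**
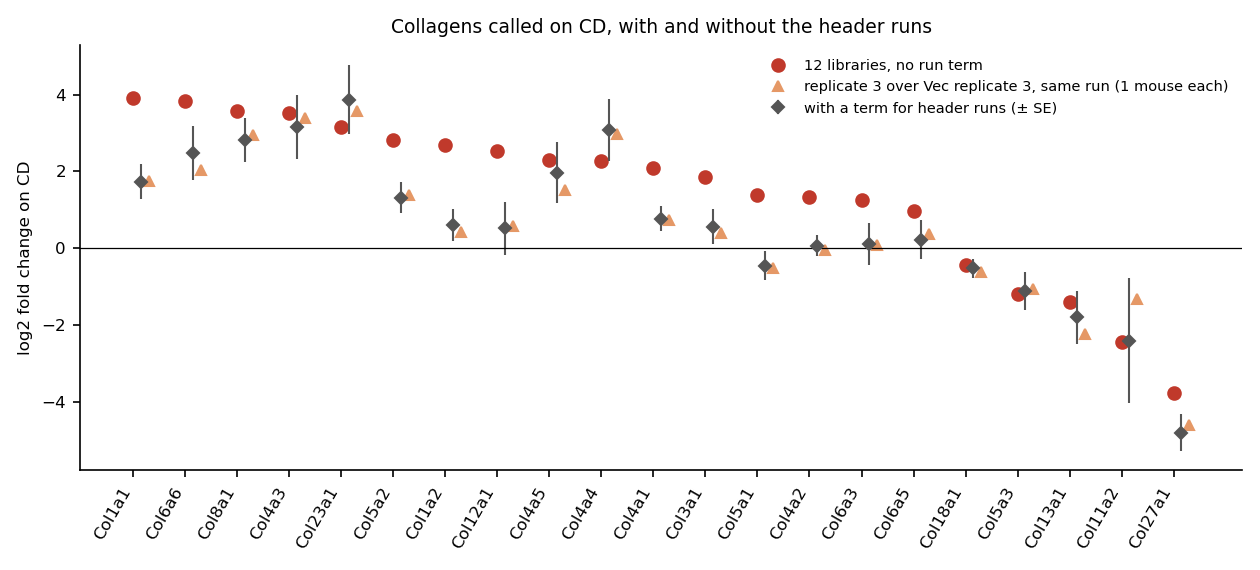
Log2 fold change on CD of the 21 called collagens from all 12 libraries (circles), with a term for the header runs (diamonds, bars are SE) and as the log2 ratio of the 2 CD mice of the second run (triangles, 1 mouse each). The diamonds take the CD oncogene level from replicate 3 alone. Col1a1 moved from 3.92 to 1.73 and Col5a1 from 1.38 to -0.46, while Col4a4, Col8a1, Col23a1 and Col27a1 kept their calls.

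On LPD the same comparison of c-MET/β-catenin with Vec livers called none of the 44 collagens (edgeR), against 1.32% of the genes tested. At an unadjusted p under 0.05 there were 2, Col18a1 and Col6a6 (6.9% of the 29 tested, against 11.1% of all genes tested). DESeq2 called 0 of the 44 too, against 3.57% of all genes, and the run term 0, against 0.538%. Log2 fold changes were 0.39 ± 0.61 for Col1a1, 0.17 ± 0.35 for Col4a1, 0.29 ± 0.40 for Col8a1, -0.55 ± 0.32 for Col27a1 and 1.26 ± 0.51 for Col6a6 (edgeR adjusted p from 0.364 to 0.937). Among the 29 tested collagens the median was 0.17, and over all genes tested it was 0.01. Groups of mice did not overlap for 4 collagens, Col6a6 and Col20a1 higher and Col15a1 and Col18a1 lower, while 25.2% of all genes tested were so separated.

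**Figure D4:**
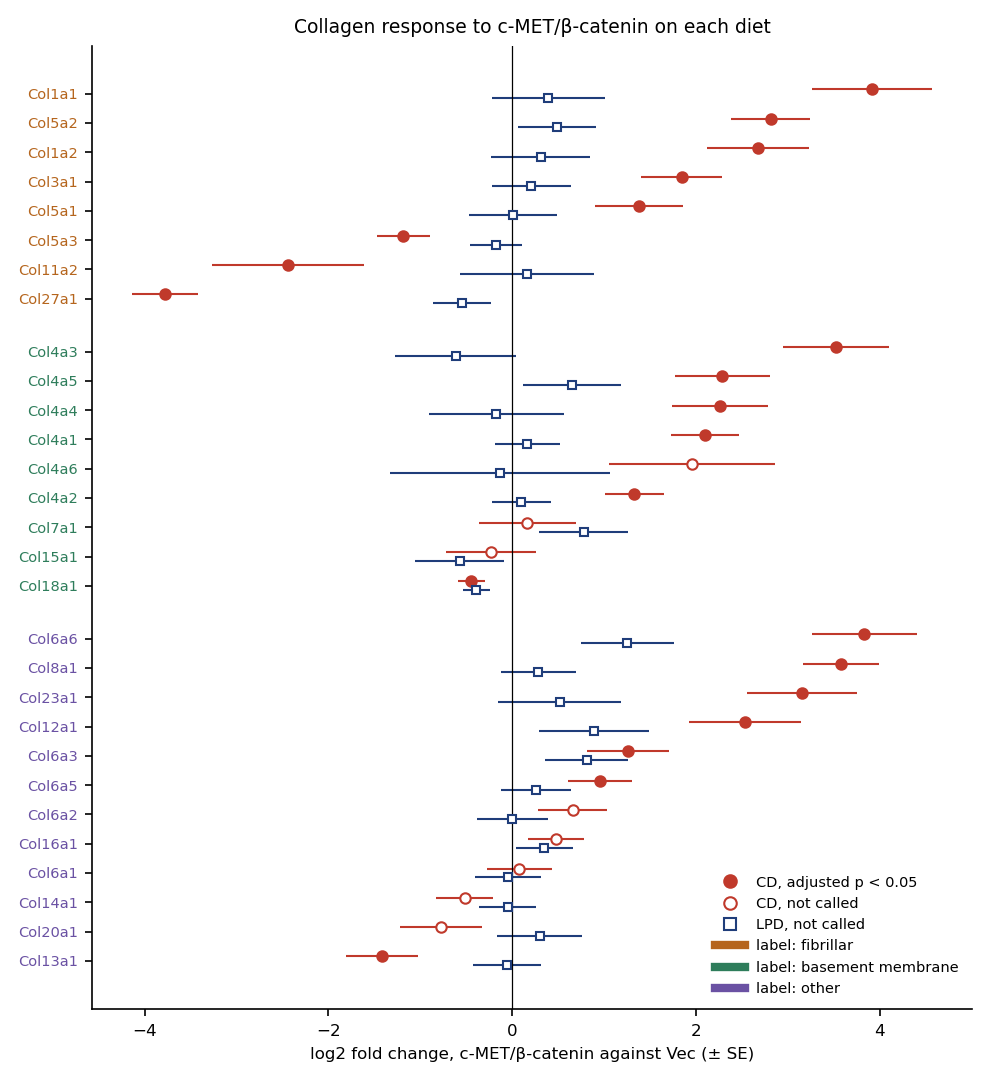
Log2 fold change with the oncogenes, relative to Vec, for the 29 tested collagens, on CD (red circles) and on LPD (blue squares), with SE bars. Filled circles passed the edgeR test at an adjusted p under 0.05, and name colors mark the classes. On CD 21 were called and on LPD 0, and Col1a1 was at 3.92 on CD and 0.39 on LPD.

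Diet alone left the collagens of Vec livers without a called difference (0 of 44 by edgeR, against 0.308% of the genes tested). At an unadjusted p under 0.05 there were 0 as well, against 9.87% of all genes tested. DESeq2 called 0, against 2.43% of all genes, and the run term 0, against 0.115%. The lowest adjusted p, 0.511, belonged to Col20a1, which was at 1.68, 3.58 and 1.72 CPM on CD and at 1.2, 1.22 and 1.08 CPM on LPD. The 3 highest levels per kilobase belonged to the same genes on both diets: Col18a1 led with 196.0 on CD and 199.2 on LPD, followed by Col27a1 (17.4 and 17.5) and Col14a1 (7.65 and 8.42).

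Between the oncogene livers of the 2 diets 17 of the 44 collagens differed, 13 lower and 4 higher on LPD. They are 38.6% of the 44 members and 58.6% of the 29 tested, against 20.0% of all genes tested. Lower on LPD were 29.5% of the members and 44.8% of those tested, against 11.3%, and higher were 9.09% and 13.8%, against 8.66%. Without the 3 genes that passed the filter only through the CD c-MET/β-catenin libraries, 11 of 26 were lower and 4 higher. This comparison shares the CD c-MET/β-catenin livers with the first, so the values of both are set side by side. The largest differences were in Col4a3 (log2 fold change -4.06 ± 0.59, and 3.53 in the first comparison), Col1a1 (-3.89 ± 0.65 and 3.92), Col4a4 (-3.49 ± 0.57 and 2.27) and Col27a1 (3.24 ± 0.35 and -3.78). Col23a1 was at -2.90, Col8a1 at -2.84, Col5a2 at -2.60, Col1a2 at -2.58, Col3a1 at -1.86, Col4a5 at -1.86, Col12a1 at -1.85, Col4a1 at -1.76, Col6a5 at -1.35 and Col4a2 at -1.24 on this scale. Higher on LPD beside Col27a1 were Col11a2 (2.54), Col13a1 (1.60) and Col5a3 (1.33). Of the 21 collagens called in the first comparison, Col5a1, Col18a1, Col6a3 and Col6a6 were not called here, with adjusted p of 0.105, 0.753, 0.319 and 0.0717 by edgeR.

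With the run term, 5 of these 17 stayed called: Col4a3 (-4.33), Col4a4 (-3.98), Col8a1 (-2.44) and Col23a1 (-3.33) lower and Col27a1 (4.23) higher on LPD, while 4.43% of all genes were called. Col4a4 and Col23a1 are again the genes that reached the test only through the CD oncogene libraries. With the run term, as within the second run, the CD oncogene group is replicate 3 alone, so these are not separate checks. The fit of the second run alone called 9 collagens, against 11.9% of all genes: these 5 and also Col4a1 (-0.53), Col5a2 (-1.19), Col5a3 (1.11) and Col11a2 (2.77). With the run term, the median of the 13 lower collagens went from -2.58 to -1.19 on the log2 scale. That of the 4 higher ones went from 2.07 to 2.33. Col1a1 moved to -1.48, Col1a2 to -0.43, Col3a1 to -0.46, Col4a1 to -0.53 and Col4a2 to -0.07. Col12a1 turned to 0.08 with the run term, and its call was also lost without any of 9 libraries (adjusted p up to 0.253 for replicate 1 of the CD oncogene group). Col11a2 was likewise lost without any of 9 libraries (adjusted p up to 0.149). Among CD oncogene livers, leaving out replicate 1 ended the calls of Col3a1, Col4a2 and Col6a5 (adjusted p of 0.0517, 0.0728 and 0.0589), and leaving out replicate 2 that of Col4a5 (0.0914). With replicate 1 of the LPD oncogene group left out, 11 calls were left. Col13a1 lost its call without replicate 3 of that group (adjusted p = 0.06).

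The interaction subtracts the CD log2 fold change of the oncogenes from the LPD one, so it asks whether the oncogene response differed between the diets. It passed for 6 of the 44 collagens (13.6%, or 20.7% of those tested, against 8.91% of all genes tested, and for 10 by DESeq2, against 15.0%): Col4a3 (-4.14 ± 0.88), Col1a1 (-3.53 ± 0.87), Col8a1 (-3.29 ± 0.57), Col5a2 (-2.33 ± 0.60), Col4a1 (-1.93 ± 0.51) and Col27a1 (3.23 ± 0.46). Of these, Col8a1 and Col27a1 kept their call when any 1 library was left out. Col1a1, Col4a1 and Col5a2 lost theirs without any of 9, 10 and 11 libraries, with adjusted p up to 0.0808, 0.0959 and 0.099, each without LPD Vec replicate 2. Col4a3 lost it without LPD Vec replicates 2 or 3 (0.0589 and 0.0518). Once the run term was added, Col27a1 alone was called (4.24, edgeR adjusted p = 0.016), while 0.609% of all genes were. Within the second run alone Col4a3 (-4.34) and Col27a1 (3.97) were called, against 2.70% of all genes. With the run term Col4a3 was at -4.01 and Col8a1 at -2.68, while Col1a1 went to -1.22, Col5a2 to -0.87 and Col4a1 to -0.65. The 15 other collagens that were called on CD did not pass the interaction test, so for them a difference between diets was not shown.

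The makeup of the summed collagen level was set by Col18a1, which took 71.0% to 78.8% of the CPM per kilobase of all 44 collagens in 10 livers. In CD c-MET/β-catenin replicates 1 and 2 it took 47.6% and 51.7%. Fibrillar chains held 12.6% ± 2.47 (SD, n = 3) of the sum in CD Vec, 23.1% ± 10.9 in CD c-MET/β-catenin, 11.9% ± 1.16 in LPD Vec and 12.8% ± 1.14 in LPD c-MET/β-catenin livers. Basement membrane chains held 82.1% ± 1.83, 70.9% ± 11.5, 82.7% ± 1.32 and 80.1% ± 2.26. Other collagens held 5.27% ± 0.809, 5.97% ± 0.566, 5.41% ± 0.84 and 7.09% ± 1.54. In CD c-MET/β-catenin replicates 1, 2 and 3 the fibrillar share was 29.8%, 29.0% and 10.5%, so replicate 3 lay at the level of the other groups. The group means mix the header runs, and in the second run the fibrillar share was 11.1% in the CD Vec mouse and 10.5% in the c-MET/β-catenin mouse.

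Leaving Col18a1 out, a choice made after its share was seen, the summed level of the remaining 43 genes was 60.3, 51.3 and 56.7 CPM per kilobase in CD Vec and 173.1, 129.1 and 45.5 in CD c-MET/β-catenin livers. It was between 49.5 and 60.3 in all 6 LPD livers. The fibrillar share of this sum was 56.3% ± 7.82 in CD Vec and 53.0% ± 9.50 in CD c-MET/β-catenin livers, a difference smaller than the SD of either group. Its makeup differed more. Col27a1 held 22.6%, 44.9% and 27.6% of it in CD Vec and 0.776%, 1.42% and 1.40% in CD c-MET/β-catenin, and Col1a1 held 2.91%, 2.32% and 2.06% against 19.0%, 19.7% and 8.58%. The basement membrane share was 20.0% ± 3.56 against 31.5% ± 4.82, above every CD Vec liver in all 3 oncogene livers. On LPD it was 23.2% ± 1.03 with Vec and 24.7% ± 3.6 with the oncogenes. Between the CD Vec and c-MET/β-catenin mice of the second run, the fibrillar share was 52.3% against 42.2% and the basement membrane share 22.7% against 36.4%. These shares are descriptions and were not tested.

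**Figure D5:**
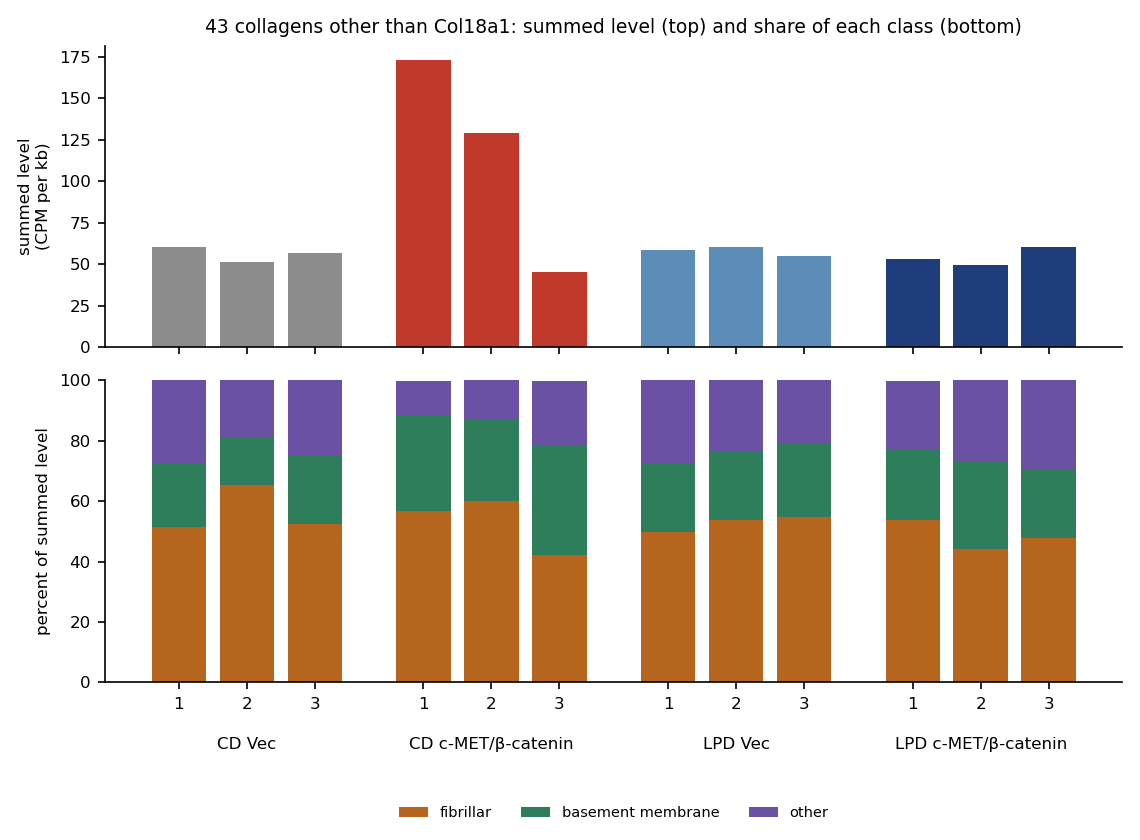
Summed level of the 43 collagens other than Col18a1 in each liver, in CPM per kilobase of exon (top, bars colored by group), and the percent of that sum held by fibrillar, basement membrane and other collagens (bottom). CD c-MET/β-catenin replicates 1 and 2 stood at 173.1 and 129.1, and replicate 3, at 45.5, below all the other livers.

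Ratios between chains were computed per kilobase. Type I collagen is built from a pair of α1 chains with 1 α2 chain. Its Col1a1/Col1a2 mRNA ratio was 0.676, 0.717 and 0.484 in CD Vec, 1.44, 1.54 and 1.22 in CD c-MET/β-catenin, 0.533, 0.620 and 0.482 in LPD Vec and 0.638, 0.515 and 0.605 in LPD c-MET/β-catenin livers. All 3 CD oncogene livers, replicate 3 included, stood above the 9 others. Col1a1/Col3a1 was 0.219, 0.281 and 0.182 in CD Vec and 1.04, 0.946 and 0.459 in CD c-MET/β-catenin livers, and between 0.166 and 0.232 on LPD.

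Col4a1/Col4a2 was 1.2, 1.33 and 1.16 in CD Vec, 2.34, 1.73 and 1.99 in CD c-MET/β-catenin and 1.29 to 1.52 on LPD, again with no overlap between the CD oncogene livers and the rest. These genes share the overlap of first exons shown above, yet their changes differed in size within each of the 3 livers. Col5a1/Col5a2 was 2.52, 2.22 and 2.24 in CD Vec and 0.823, 1.03 and 0.596 in CD c-MET/β-catenin livers, and was 1.66 to 4.06 on LPD. Col6a1/Col6a2 was 1.61 to 1.81 in CD Vec and 1.03 to 1.33 in CD c-MET/β-catenin, where the LPD livers (1.18 to 1.98) overlapped both. Col6a3/Col6a1 was 0.423 to 0.500 in CD Vec and 0.927, 1.71 and 0.601 in CD c-MET/β-catenin livers, and on LPD 0.388, 0.402 and 0.536 with Vec and 1.2, 0.702 and 0.439 with the oncogenes, so that the oncogene groups of both diets overlapped. No ratio was tested.

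Too low to be tested were 15 of the members, all with at most 40 counts in any library. Col11a1, a fibrillar chain that is known to rise in active fibroblasts of tumors, had 40, 21 and 3 counts in CD c-MET/β-catenin livers and 0 in all 3 CD Vec livers, at least 17.1-fold higher over the group against a floor of 3 counts. It had 0 counts in LPD Vec and 1 in LPD c-MET/β-catenin livers. Col9a1 had 0 counts in every liver. Summed over 12 libraries, Col2a1, Col6a4, Col9a2, Col10a1, Col19a1, Col22a1, Col26a1 and Col28a1 had 1 to 12 counts, and Col8a2, Col9a3, Col17a1, Col24a1 and Col25a1 had 30 to 71. Col24a1, another fibrillar chain, had 8, 4 and 7 counts in CD Vec and 2, 3 and 1 in CD c-MET/β-catenin livers, at 0.407, 0.227 and 0.364 against 0.0577, 0.122 and 0.0374 CPM, without overlap. Its LPD livers had 0.0959, 0.127 and 0.154 CPM with Vec and 0.147, 0.0701 and 0.262 CPM with the oncogenes. In a fit without the low-count filter Col11a1 (edgeR adjusted p = 0.00613) and Col24a1 (log2 fold change -2.16 ± 0.70, edgeR adjusted p = 0.0354) passed on CD, where 23.2% of all genes did, and Col11a1 was also lower in LPD than in CD oncogene livers (edgeR adjusted p = 0.0144), against 12.8%. No difference was detected in the rest of these genes in that fit, at counts this low.

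Collagen chains are modified and folded in the endoplasmic reticulum before secretion. Of 20 genes for this processing, 3 rose and 2 fell on CD, which at 25% called, 15% up and 10% down is below the 35.4%, 18.7% and 16.7% of all genes tested. The counts that follow are read against the same background. Fkbp10, a prolyl isomerase of the collagen fold, was at 1.22, 1.02 and 1.30 CPM against 5.66, 3.55 and 1.38 CPM (log2 fold change 1.58), and Plod2, which hydroxylates telopeptide lysines, was at 0.611, 0.852 and 0.468 against 3.93, 1.79 and 0.674 CPM (1.74). Colgalt2, a collagen galactosyltransferase, and Sec23a, a coat protein of the vesicles that export procollagen, fell by 2.81 and 0.61 on the log2 scale. Serpinh1, the collagen chaperone HSP47, was at 8.35, 13.2 and 5.67 against 24.4, 12.2 and 6.44 CPM and was not called.

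Of 12 genes for propeptide cleavage and cross-linking, 5 rose (41.7%) and 0 fell on CD. Lox, the enzyme that oxidises lysines for cross-links, was at 0.204, 0.0568 and 0.156 CPM in CD Vec and at 7.56, 3.43 and 0.711 CPM in CD c-MET/β-catenin livers, in the same order of mice as Col1a1 (log2 fold change 4.75 ± 0.90). Its relative Loxl4 was at 1.12, 0.796 and 1.82 against 26.9, 5.10 and 19.7 CPM (3.78). Of 12 genes for collagen degradation and its inhibitors, 5 rose (41.7%) and 0 fell. Mmp14, a membrane collagenase, was at 28.7, 16.4 and 25.7 against 151.2, 94.0 and 86.4 CPM (2.23), and Mmp13, a secreted collagenase, rose by 3.08. Timp1, which inhibits secreted collagenases, was at 0.255, 0.170 and 0.260 against 6.96, 4.61 and 1.05 CPM (4.17). Mmp2 was at 1.42 to 3.38 CPM in all CD livers and was not called.

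Of 10 collagen receptors 5 rose (50%) and 0 fell on CD. Ddr1, a receptor kinase that binds the triple helix, was at 1.22, 1.48 and 2.55 against 17.3, 19.9 and 9.80 CPM (log2 fold change 3.16), and Itga2, the α2 integrin, was at or below 0.052 CPM in CD Vec and at 2.25, 1.14 and 0.786 CPM with the oncogenes. Of 16 other basement membrane proteins 4 rose (25%, against 18.7% of all genes) and 1 fell (6.25%, against 16.7%), together 31.2% against 35.4%. Nid1, which links laminin to type IV collagen, was at 18.7, 6.02 and 16.1 against 333.0, 170.6 and 161.8 CPM (4.02). Sparc rose by 2.29 and Lama1 fell by 1.27. Of 15 fibril-associated proteoglycans and glycoproteins 7 rose (46.7%) and 1 fell, with Tnc (4.64) and Thbs1 (3.99) the largest rises. Dcn, which coats collagen fibrils, fell from 136.1, 136.1 and 106.1 to 55.7, 54.2 and 43.4 CPM (-1.30).

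Of 14 measured genes for TGF-β ligands, receptors and matrix-inducing growth factors 9 rose (64.3%) and 1 fell on CD. Pdgfc, a mitogen for stellate cells, was at 3.46, 3.75 and 2.55 against 20.8, 15.1 and 23.3 CPM (log2 fold change 2.60), Tgfb2 rose by 2.28 and Tgfb1 by 0.84, and Smad7, which inhibits the pathway, fell by 0.70. When the run term was added, the called genes of the 7 lists on CD were Loxl4, Mmp13, Mmp14, Ddr1, Nid1, Eln and Pdgfc, all higher, and Lama1, Dcn and Smad7, all lower, where 6.78% of all genes were called. The second run alone gave Loxl4, Mmp14, Ddr1, Nid1, Eln, Pdgfb and Pdgfc higher and Colgalt2, Sec23a and Lama1 lower, against 12.1%. On LPD the oncogenes raised Pdgfc (3.64, 2.74 and 3.43 against 11.5, 7.72 and 6.73 CPM, log2 fold change 1.40, edgeR adjusted p = 0.0189), and no other gene of the 7 lists was called. In Vec livers diet changed 0 of them by edgeR. Between oncogene livers, genes lower on LPD than on CD numbered 3 for processing, 4 for cross-linking, 5 for degradation, 3 for receptors, 3 for basement membrane proteins, 6 for proteoglycans and glycoproteins and 7 for growth factors, where 11.3% of all genes tested were lower. Higher there was 1 gene each of the processing, basement membrane, proteoglycan and growth factor lists and 0 of the others, where 8.66% of all genes tested were higher. The run term left 0, 1, 2, 0, 0, 2 and 2 lower genes of the 7 lists in the same order, and 1 higher gene each of the last 3 lists, against 4.43% of all genes in either direction. In the second run alone 0, 1, 2, 1, 1, 1 and 4 were lower and 1, 0, 0, 1, 1, 1 and 1 higher, against 11.9%. The interaction was below 0 for 0, 2, 1, 1, 3, 4 and 3 called genes of the 7 lists in the same order, where it was so for 4.42% of all genes tested, and above 0 for 1 processing gene and 1 gene of the proteoglycan list, against 4.49%. The medians on CD over the tested genes of the lists were -0.01 for processing, 0.96 for cross-linking, 1.33 for degradation, 0.91 for receptors, 0.43 for basement membrane proteins, 0.79 for proteoglycans and glycoproteins and 0.97 for growth factors, with -0.01 over all genes tested.

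Markers of matrix-producing cells moved in the same livers. In bulk tissue, a change in the number of cells of a type and a change in RNA per cell cannot be told apart. Of 8 markers of activated stellate cells and myofibroblasts, 5 rose on CD (62.5%, against 18.7% of all genes tested), and 0 of them were called with the run term or within the second run alone. Their sum was 21.5 to 31.2 CPM in CD Vec, 108.3, 78.0 and 30.0 CPM in CD c-MET/β-catenin replicates 1, 2 and 3, 23.7 to 30.2 CPM in LPD Vec and 26.0 to 32.7 CPM in LPD c-MET/β-catenin livers. Acta2, smooth muscle actin, was at 1.58, 1.36 and 3.8 CPM against 30.5, 15.4 and 5.01 CPM on CD (log2 fold change 2.91 ± 0.69), in the mouse order of Col1a1. Pdgfrb, carried by stellate cells at rest and when active, was at 12.4, 6.65 and 8.02 against 13.0, 17.2 and 7.71 CPM and was not called.

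Of 12 markers of quiescent stellate cells 7 fell (58.3%, against 16.7% of all genes tested) and 1 rose on CD, with a sum of 335.4 to 440.7 CPM against 223.2 to 372.8 CPM. Within these sums Reln went the other way, at 66.1, 33.1 and 54.8 CPM in CD Vec and 113.5, 212.5 and 118.1 CPM in CD c-MET/β-catenin livers. Portal fibroblast markers rose in 3 of 8 (37.5%, against 18.7%), from a sum of 9.55 to 13.7 CPM to 38.9 to 53.5 CPM. Eln was at 20.7, 30.5 and 24.7 CPM of the sums in the oncogene livers. Lists share genes: Cd34 counts for portal fibroblasts and for continuous endothelium, and Eln and Dcn count for the proteoglycan list too. Lox and Timp1 of the activated stellate list also count for cross-linking and degradation. Markers of continuous endothelium rose in 3 of 8 (37.5%, against 18.7%), with a sum of 60.9 to 90.0 against 67.8 to 144.5 CPM. Those of sinusoidal endothelium fell in 3 of 8 (37.5%, against 16.7%), with a sum of 171.1 to 357.9 against 169.3 to 224.1 CPM. Of the 8 cholangiocyte markers 2 rose (25%, against 18.7%), with a sum of 37.5 to 46.4 against 121.2 to 382.2 CPM that was mostly Spp1. Hepatocyte markers fell in 4 of 7 (57.1%, against 16.7%). In the fit with the run term, 3 quiescent stellate markers, 1 hepatocyte marker and 1 continuous endothelial marker were called lower, and 2 each of the portal fibroblast, continuous endothelial and cholangiocyte markers and 1 macrophage marker higher, against 6.78% of all genes. The second run alone called 6 quiescent stellate markers lower and 1 higher, 2 hepatocyte markers lower, 1 marker lower each of the sinusoidal and continuous endothelium, 2 cholangiocyte markers higher, and 1 marker higher each of the portal fibroblast, smooth muscle, continuous endothelium and macrophage lists, against 12.1% of all genes. Vascular smooth muscle (89.8 to 145.8 CPM over all CD livers) and macrophage markers (106.2 to 341.6 CPM) had 1 risen gene each (16.7% and 12.5%, against 18.7%), and mesothelial markers (3.14 to 9.17 CPM) had 0. Between the oncogene livers of the 2 diets, lower on LPD were 5 of 8 markers of activated stellate cells and 3 of 8 each of portal fibroblasts and continuous endothelium, where 11.3% of all genes tested were lower. Higher on LPD were 6 of 12 quiescent stellate and 4 of 8 sinusoidal endothelial markers, where 8.66% were higher. There were 2 higher and 1 lower hepatocyte marker, 1 lower quiescent stellate marker, 2 lower cholangiocyte markers and 1 lower marker each of smooth muscle, macrophages and mesothelium. The run term left 4 quiescent stellate markers and 1 each of sinusoidal and continuous endothelium higher, and 2 cholangiocyte markers and 1 each of activated stellate cells and portal fibroblasts lower, against 4.43% of all genes. In the second run alone 7 quiescent stellate markers and 1 each of hepatocytes and of sinusoidal and continuous endothelium were higher, and the lower markers numbered 2 for cholangiocytes and 1 each for activated stellate cells and portal fibroblasts, against 11.9%. No marker was at 0 in every liver, and the part of these cells in the collagen results was not tested.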

How the data were processed

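Per the authors' methods, reads were aligned to mm10 with HISAT2 and counted per gene (Entrez) with featureCounts. The authors deposited raw integer counts. Versions, strand setting and treatment of multi-mapped reads are not stated, so the closely related larger type VI chains are uncertain, as are genes sharing exon bases with another (13 members, 1 of them, Col9a3, over 5%). Library preparation is given as rRNA depletion in the labels and as mRNA selection in the methods. At 1 CPM the smallest library holds 19.48 counts. Symbols and coordinates came from RefSeq GRCm38.p6, and exon lengths from GENCODE M21 basic transcripts merged per gene.

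All 12 libraries entered 1 edgeR 4.0.16 quasi-likelihood fit (R 4.3.3, TMM factors 0.864 to 1.12, filterByExpr at 10 counts, 1 coefficient per group). Of 27179 genes 13947 were tested, 29 of the 44 collagens among them. P-values were adjusted by Benjamini-Hochberg over all genes tested, and calls had an adjusted p under 0.05. SE was obtained by dividing the size of each log2 fold change by √F. Replicates are separate mice, and no pair of libraries within a group was a duplicate. Values are printed for every mouse for collagens with a mean of at least 5 CPM in any group or called in any comparison. From the other lists, named genes were at most 2 with the largest rise and 2 with the largest fall among those called, with 8 fixed genes. Genes that make up much of a marker sum or stand in more than 1 list are named besides. Ctgf, an older symbol of Ccn2, had no matching symbol in the table, and the gene was measured as Ccn2. Members, classes and lists were chosen with earlier results of these data known. Alternatives were other scalings, no filter, DESeq2 1.42.0, fits of 2 groups only, a replicate block, a term for header runs, leaving out each library and, added after the data were seen, a fit of the second header run alone. The scripts were tested on simulated data.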

Additional observations from a re-analysis of the deposited data

Results flagged for a closer look

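For 6 collagens the response to c-MET/β-catenin differed between the diets by the test of the difference itself (edgeR interaction, adjusted p under 0.05 over all genes tested). The interaction on the log2 scale was -4.14 for Col4a3 (adjusted p = 0.0176), -3.53 for Col1a1 (0.0329), -3.29 for Col8a1 (0.00818), -2.33 for Col5a2 (0.0345), -1.93 for Col4a1 (0.0384) and 3.23 for Col27a1 (0.00348). Col8a1 and Col27a1 kept their call without any 1 library, and Col27a1 kept it with the header run term as well. With that term Col4a3 was at -4.01, Col8a1 at -2.68, Col1a1 at -1.22, Col5a2 at -0.87 and Col4a1 at -0.65 on the log2 scale. These values take the CD oncogene level from replicate 3 alone. Groups of 3 were not tested for an outlying sample.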

How the results depend on the processing

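The counts of called collagens on CD (21) and between oncogene livers of the 2 diets (17) stayed within 1.5 times under other scalings, no filter, DESeq2, fits of 2 groups only and the replicate block. The term for header runs left 4 and 5, and 1 of 6 for the interaction, and turned Col5a1 on CD to -0.46 and Col12a1 between diets to 0.081. The second run alone, a fit added after the data were seen, left 7, 9 and 2, and turned Col4a2 and Col5a1 on CD to -0.061 and -0.54 and Col12a1 between diets to 0.082. With the run term and in the second run alone, the CD oncogene level comes from replicate 3, since its group mates are alone in the first run. The interaction gave 10 calls by DESeq2. Leaving out 1 library gave 16 to 20 calls on CD, 11 to 20 between oncogene livers and 2 to 11 for the interaction (2 without LPD Vec replicate 2, 3 without CD c-MET/β-catenin replicate 2 or any other LPD library, and 11 without CD c-MET/β-catenin replicate 3). The 0 counts on LPD and for diet in Vec livers stayed 0 in all of these. With total counts only, the calls on CD were 16 higher and 3 lower, and 78.8% in place of 52.8% of all called genes were higher. Shares by CPM in place of level per length moved by less than 1 SD. Differences of log2 ratios between groups cannot depend on gene length, by construction, whereas the ratios themselves do, by a factor of 0.682 for Col6a1/Col6a2 to 2.65 for Col6a3/Col6a1.

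Replicate numbers do not pair the mice: of 18 same-numbered pairs 2 had deviations correlated above 0.1 (r from -0.183 to 0.167), and 3 of 12 libraries correlated best with their own number. With the replicate block the calls were 19 on CD, 16 between oncogene livers and 3 for the interaction. Depth limits the 15 untested members and those under 1 CPM, and 3 mice per group limit the rest.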
